A study of Mus musculus with 7 samples.

Results

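The reticulocyte remodelling and ubiquitin genes described here are 10 genes of late red cell maturation, enucleation and protein clearance: Trim58, Xpo7, Ube2o, Ube2h, Ube2l6, Alox15, Hemgn, Tspan33, Fam210b and Ncoa4. They were chosen by name and not by a cutoff on measured values, but with earlier results of these data known. Each was found under 1 Ensembl identifier among the 39017 genes of the deposited read counts. All 10 passed the filter on low counts, which kept 15800 genes for testing. The counts come from RNA sequencing of whole dissociated fetal livers of C57BL/6 mice at E12.5, in 7 libraries of 3 genotypes. Taf10 encodes a subunit shared by the general transcription factor TFIID and the coactivator SAGA, and the design asks how the fetal liver transcriptome differs when it is removed by EpoCre, a Cre under control of the Epor gene that acts in erythroid cells. The 2 TAF10KO livers carried EpoCre and, by their titles, lox/lox alleles. The design text of the series writes them as lox/KO instead. All 3 TAF10HET livers carried EpoCre, with lox/wt alleles in replicate 1 and wt/ko alleles in replicates 2 and 3. The 2 WT livers were lox/lox without Cre, so that the effect of carrying EpoCre cannot be told apart from that of Taf10 loss in either comparison with WT.

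Each title also carries a code in the form of a date. TAF10KO replicate 1, TAF10HET replicate 1 and WT replicate 1 share the first code, and TAF10HET replicates 2 and 3, WT replicate 2 and TAF10KO replicate 2 share the second. What the code marks is not stated, and in TAF10HET it cannot be told apart from the kind of allele. The labels do not say whether livers with a code shared a litter, so the p-values measure the spread between these 7 libraries. The reads assigned to genes numbered 18008391 to 43401474 per library. Date codes separated along a first principal component with 63.21% of the variance, and the biological coefficient of variation was 33.91% with genotype alone and 13.44% with the date code in the model. All genotype differences below are therefore log2 differences from the model with genotype and date code, and "rose" and "fell" stand for an adjusted p under 0.05 over all 15800 genes (edgeR, quasi-likelihood test, Benjamini-Hochberg). Levels are CPM, counts divided by the library total after its TMM correction and brought to a common scale. Taf10 itself stood at 37.8 and 43.8 CPM in TAF10KO against 72.0 and 96.5 CPM in WT (log2 difference -1.04, adjusted p = 0.0542). Epor, the gene that drives the Cre, stood at 83.2 and 99.2 CPM in TAF10KO against 158.2 and 238.7 CPM in WT (-1.11, adjusted p = 0.0618). In TAF10HET replicates 1 to 3, Taf10 stood at 78.1, 63.7 and 63.0 CPM and Epor at 156.4, 139.2 and 125.4 CPM. TAF10HET thus differed from WT by 0.12 on the first date code and -0.61 on the second for Taf10. For Epor these differences were -0.02 and -0.85. Red cell and hepatocyte genes, the defining transcripts of fetal liver, were detected in all 7 libraries.

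Red cell precursors of the fetal liver finish their maturation by condensing and expelling the nucleus, and the reticulocyte that remains then clears its mitochondria, ribosomes and most of its soluble proteins while keeping haemoglobin. Ubiquitin-conjugating enzymes (E2) and ubiquitin ligases (E3) mark proteins for the proteasome during this clearance, and several of them are induced late in erythroid development. Autophagy and lipoxygenase activity act on organelles and iron stores in the same period.

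The 10 genes spanned a wide range of abundance. Per kilobase of the principal transcript, Hemgn had the highest mean level over the 7 libraries, at 392.6 ± 106.4 CPM per kb (SD, n = 7), followed by Ube2l6 at 194.8 ± 52.1 and Tspan33 at 157.3 ± 48.0. Xpo7 followed at 111.7 ± 36.2, Fam210b at 88.2 ± 23.9, Ncoa4 at 59.7 ± 14.9 and Ube2o at 41.9 ± 10.9. The lowest mean levels per kilobase were those of Ube2h (19.3 ± 2.85), Trim58 (10.4 ± 3.16) and Alox15 (2.91 ± 1.57). The order was the same in all 7 libraries for most neighbours. Ube2l6 over Tspan33, Tspan33 over Xpo7 and Xpo7 over Fam210b each held in 6 of 7 libraries. Raw counts ran from 42 reads (Alox15 in TAF10HET replicate 1) to 31896 reads (Hemgn in TAF10HET replicate 2). TAF10HET replicate 2 was the highest library for 8 of the 10 genes and TAF10KO replicate 1 the lowest for 5.

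**Figure D1:**
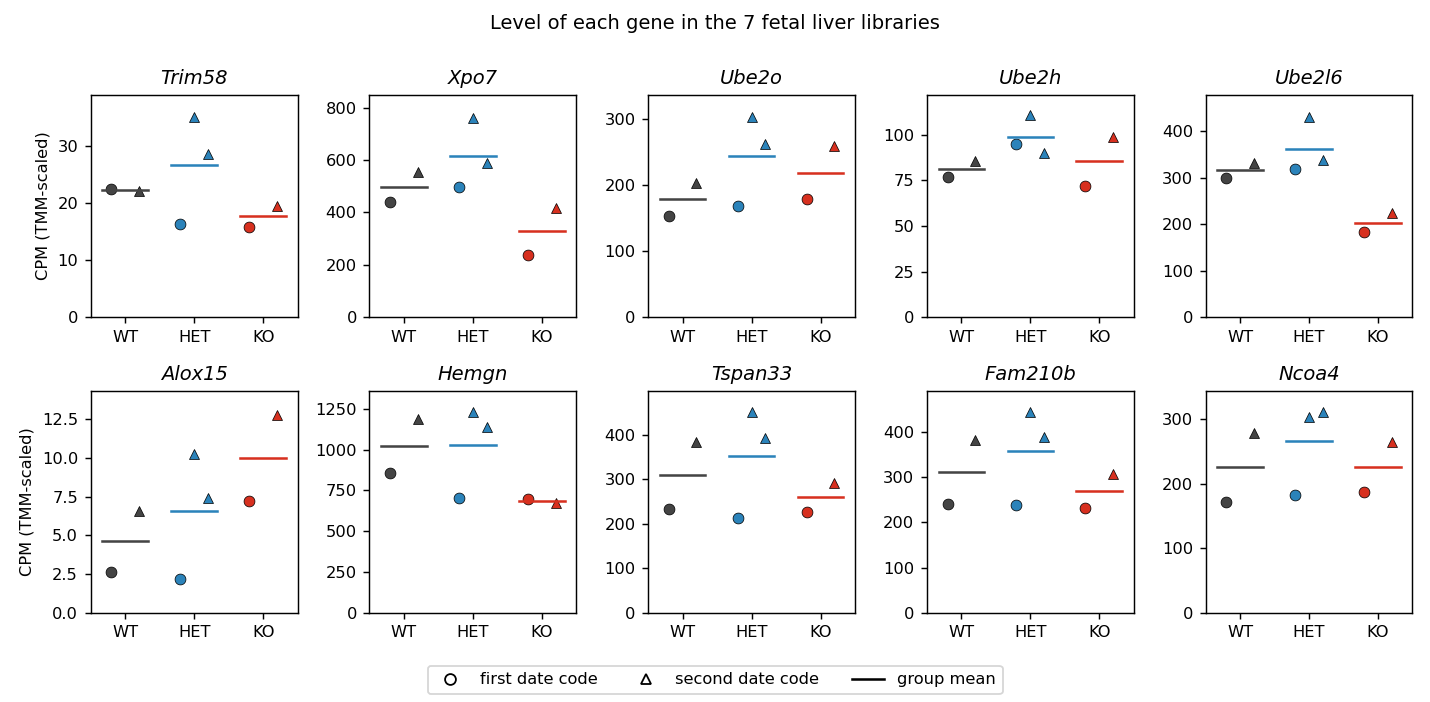
CPM of each of the 10 genes (vertical axis, TMM-scaled, starting at 0) in the 7 libraries by genotype; circles are the first date code, triangles the second, and horizontal lines are group means. Both TAF10KO libraries lie below the other 5 for Xpo7, Ube2l6 and Hemgn (as for 7.18% of all genes tested), and all triangles lie above all circles for Ube2o, Tspan33, Fam210b and Ncoa4 (as for 18.8%).

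Comparing TAF10KO with WT addresses how the maturation genes stand after Taf10 removal in erythroid cells. Of the 10 genes, 0 passed the test in edgeR, against 0.608% of all genes tested. An unadjusted p under 0.05 was found for 5 of them, and for 2830 of the 15800 genes tested. DESeq2 on the same model called 4 (Xpo7, Ube2l6, Alox15 and Hemgn), and 566 of all genes. These counts over all genes also stand beside those of the gene lists below. Without TAF10HET replicate 1 edgeR called 3 (Ube2l6, Alox15 and Hemgn), and 887 of all genes. For fits with 1 TAF10KO library only sizes are given. Without TAF10KO replicate 1, Ube2l6 was at -0.60, Hemgn at -0.90 and Tspan33 at -0.47. Without TAF10KO replicate 2, Xpo7 was at -0.90, Ube2l6 at -0.72 and Alox15 at 1.62. The fitted differences ran from -0.65 (Xpo7) to 1.21 (Alox15), with a median of -0.20 beside 0.03 over all genes. On both date codes 6 genes were below WT (Trim58, Xpo7, Ube2l6, Hemgn, Tspan33 and Fam210b), a pattern that 30.4% of all genes tested shared. The red cell reference list, 23 genes of the membrane skeleton, haem synthesis and erythroid transcription factors, had the same median of -0.20, with 18 of 23 below 0 and 0 called (6 with an unadjusted p under 0.05 and 3 called by DESeq2). In whole liver RNA, fewer cells of a type and less RNA per cell cannot be told apart. Against TAF10HET, 2 of the 10 genes fell, Xpo7 and Ube2l6. The background was 1.61% of all genes called in either direction and 0.456% called lower. DESeq2 called 3 there, Alox15 being the third, and 665 of all genes. An unadjusted p under 0.05 against TAF10HET was found for 4 of the 10, and for 2705 of the 15800 genes tested. The median difference from TAF10HET was -0.26 over the 10 genes and 0.00279 over all genes. Both comparisons use the same TAF10KO libraries and are not independent.

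**Figure D2:**
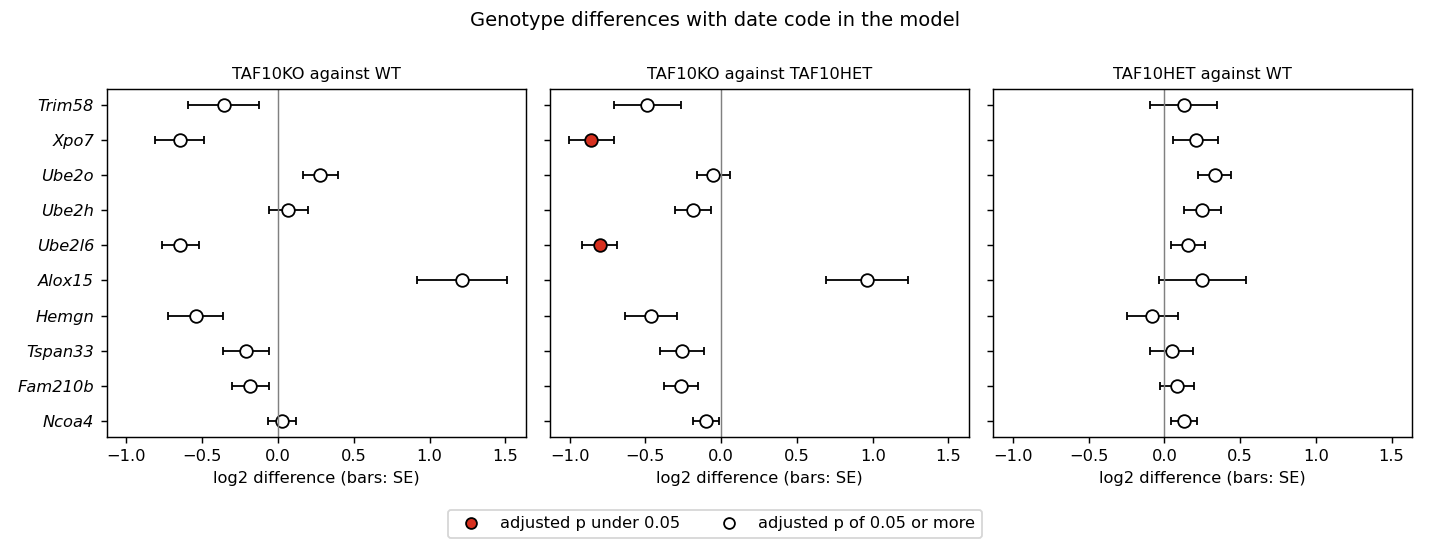
Fitted log2 differences (horizontal axis, bars are SE) of the 10 genes for TAF10KO against WT, TAF10KO against TAF10HET and TAF10HET against WT, with the date code in the model. Filled points have an adjusted p under 0.05, which holds for Xpo7 and Ube2l6 against TAF10HET, and Alox15 is the highest point of the first 2 panels.

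Of the 2 genes most directly tied to enucleation, Xpo7 fell against TAF10HET and Trim58 was not called. Xpo7 (ENSMUSG00000022100, chromosome 14, 70654246 to 70766628, mm10) encodes an exportin that maturing erythroblasts use to move histones out of the nucleus while chromatin condenses. On the first date code it stood at 236.9 CPM in TAF10KO, 496.0 in TAF10HET and 441.9 in WT, and on the second at 418.5 in TAF10KO, 759.7 and 588.1 in TAF10HET and 555.7 in WT. Both TAF10KO values lay below all 5 others. Its log2 difference was -0.86 from TAF10HET (SE 0.148, adjusted p = 0.041), with -1.07 and -0.68 within the first and second date codes. The difference from WT was -0.65 (SE 0.159, adjusted p = 0.115), and was -0.90 on the first date code and -0.41 on the second. Xpo7 shares 39 exon bases (0.205% of its exon length) with Npm2, and the strand setting of the counting is not given in the sources used here. Trim58 (ENSMUSG00000037124, chromosome 11, 58640465 to 58652404), a ubiquitin ligase that removes dynein before the nucleus is expelled, stood at 15.9 and 19.5 CPM in TAF10KO and at 22.5 and 22.1 CPM in WT. In TAF10HET it ranged more widely, at 16.3, 35.1 and 28.6 CPM in replicates 1 to 3, so that the groups overlapped. Its difference from WT was -0.36 (SE 0.234, adjusted p = 0.457), and from TAF10HET -0.49 (SE 0.221, adjusted p = 0.319). On the first and second date codes it was -0.50 and -0.18 from WT, and -0.04 and -0.70 from TAF10HET. Leaving out 1 library gave -0.678 (without WT replicate 2) to -0.0024 (without WT replicate 1) from WT, and it was called against TAF10HET without TAF10HET replicate 1 (-0.79, adjusted p = 0.0215).

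There are 3 E2 enzymes among the 10 genes, and their values differed in direction. Ube2l6 (ENSMUSG00000027078, chromosome 2, 84798828 to 84810335) encodes an E2 that passes on ubiquitin and the interferon-induced modifier ISG15. Its levels were 182.5 and 223.4 CPM in TAF10KO, 299.7 and 332.7 CPM in WT, and 319.5, 430.5 and 339.4 CPM in TAF10HET. Both TAF10KO libraries were again below all 5 others. The pattern of both TAF10KO libraries below the other 5 held for 3 of the 10 genes (Xpo7, Ube2l6 and Hemgn) and for 7.18% of all genes tested, and that of both above the other 5 for 0 of the 10 and for 7.48% of all genes. The log2 difference of Ube2l6 from TAF10HET was -0.80 (SE 0.114, adjusted p = 0.0243), and it was nearly equal on the first and second date codes, at -0.81 and -0.78. From WT it was -0.65 (SE 0.121, adjusted p = 0.0684), and was -0.72 on the first code and -0.57 on the second.

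The calls of Xpo7 and Ube2l6 against TAF10HET rest on the model and on single libraries. With no replicate block for the date code the adjusted p was 0.83 for Xpo7 and 0.624 for Ube2l6, and with only the TAF10KO and TAF10HET libraries in the fit it was 0.14 and 0.109. Leaving out either WT library, or TAF10HET replicate 2 or 3, also ended both calls, with an adjusted p of 0.109 to 0.141 for Xpo7 and 0.0553 to 0.106 for Ube2l6. Leaving out TAF10HET replicate 1 (adjusted p = 0.0504) and non-robust dispersions (0.0507) each ended that of Xpo7. Factors taken from the red cell reference genes gave -0.64 (adjusted p = 0.125) for Xpo7 and -0.60 (adjusted p = 0.0667) for Ube2l6. The differences kept their sign in all 17 alternatives tried, between -1.13 and -0.64 for Xpo7 and between -0.88 and -0.60 for Ube2l6.

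Ube2h (ENSMUSG00000039159, chromosome 6, 30211289 to 30304539) encodes the E2 that works with the CTLH ligase complex, and it was not called in any genotype comparison. It stood at 72.1 and 99.0 CPM in TAF10KO, at 76.7 and 85.4 CPM in WT and at 95.1, 110.8 and 90.1 CPM in TAF10HET. The groups overlapped, and the difference from WT was 0.07 (SE 0.129, adjusted p = 0.824), below 0 on the first date code (-0.09) and above 0 on the second (0.21). From TAF10HET it was -0.18 (SE 0.1185, adjusted p = 0.477), with -0.40 on the first code and -0.01 on the second. Ube2o (ENSMUSG00000020802, chromosome 11, 116537740 to 116581447) encodes an enzyme with both E2 and E3 activity that directs unassembled and ribosomal proteins to the proteasome in reticulocytes. It stood at 178.3 and 258.6 CPM in TAF10KO, at 153.1 and 203.4 CPM in WT and at 167.7, 303.8 and 262.3 CPM in TAF10HET. It had positive differences from WT in both TAF10KO (0.28, SE 0.116, adjusted p = 0.267) and TAF10HET (0.33, SE 0.109, adjusted p = 0.999), and a difference between TAF10KO and TAF10HET of -0.05 (SE 0.107, adjusted p = 0.854).

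Among all 33 genes of the E2 family tested, Ube2l6 had the lowest difference in TAF10KO both from WT and from TAF10HET, and Ube2o had the highest from WT. Of the 30 other E2 genes, 0 were called in TAF10KO against WT by edgeR (4 had an unadjusted p under 0.05 and DESeq2 called 1), and their median was -0.06. The most abundant of them, Ube2d3, differed from WT by -0.14 (adjusted p = 0.41). Against TAF10HET 1 of the 30 fell, the mitotic E2 gene Ube2c (-0.54, adjusted p = 0.0414), which is named here after its value was seen. Ube2c stood at 193.3 and 241.6 CPM in TAF10KO, against 275.5, 384.8 and 330.0 CPM in TAF10HET and 256.5 and 355.4 CPM in WT. Its call was lost with no replicate block (adjusted p = 0.842) and without either WT library or without TAF10HET replicate 2 or 3 (0.125 to 0.155).

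**Figure D3:**
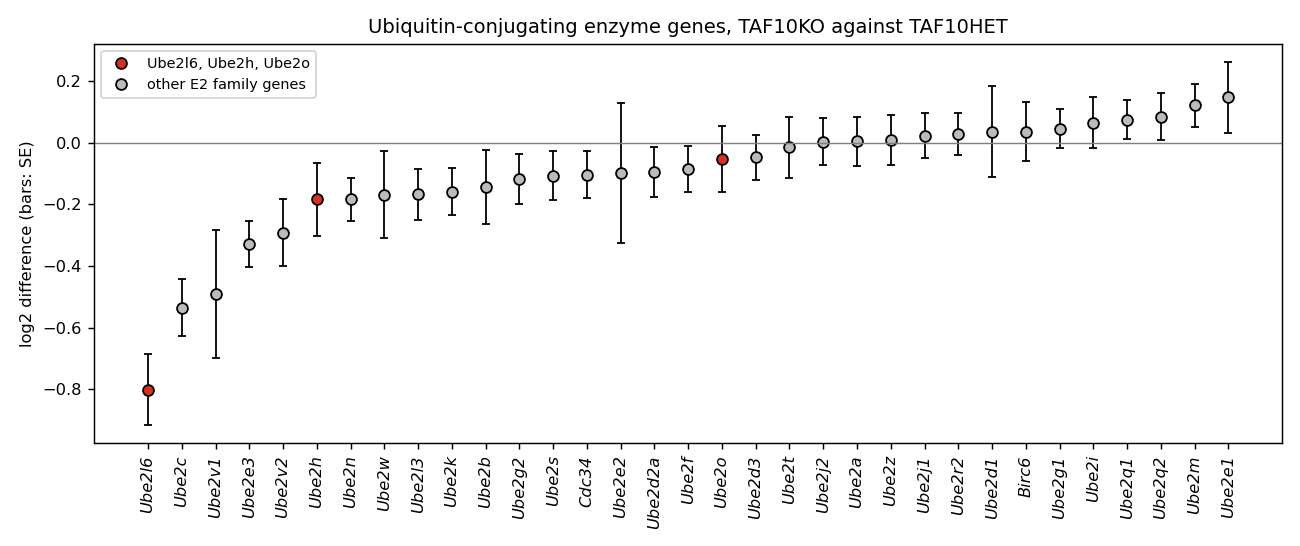
Log2 difference of TAF10KO from TAF10HET (vertical axis, bars are SE) for the 33 genes of the E2 family, ordered from the lowest; red points are Ube2l6, Ube2h and Ube2o. Ube2l6 is the lowest at -0.80, Ube2h is at -0.18 and Ube2o at -0.05.

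The starts of 2 of these E2 genes are shown because Ube2l6 fell in TAF10KO against TAF10HET and Ube2h was not called there. The sequences are the 250 bases before the first transcription start in RefSeq (GRCm38.p6), written 5′ to 3′ on the strand of the gene. The motifs searched, on both strands, were AGATAA and TGATAA, read by GATA factors; CACCC, read by KLF factors; and GAAA followed by any 2 bases and GAAA, the core of the interferon response element. Capitals mark any match. The first sequence lies at chr2:84798578-84798827 on the plus strand and the second at chr6:30304540-30304789 on the minus strand.
Ube2l6: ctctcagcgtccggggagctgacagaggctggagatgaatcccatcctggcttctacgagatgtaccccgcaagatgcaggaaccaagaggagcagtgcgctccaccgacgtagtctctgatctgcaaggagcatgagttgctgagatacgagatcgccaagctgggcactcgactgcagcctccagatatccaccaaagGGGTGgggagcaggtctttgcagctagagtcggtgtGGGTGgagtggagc
Ube2h: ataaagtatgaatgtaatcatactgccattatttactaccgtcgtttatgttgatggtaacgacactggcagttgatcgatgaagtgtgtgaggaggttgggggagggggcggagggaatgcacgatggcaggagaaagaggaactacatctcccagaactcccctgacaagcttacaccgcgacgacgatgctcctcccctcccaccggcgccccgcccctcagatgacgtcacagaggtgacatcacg
The Ube2l6 window held CACCC in 2 places, 50 and 14 bases before the start and both on the opposite strand (GGGTG), and neither of the other motifs. The Ube2h window held none of these motifs. A second start of Ube2h in RefSeq has a GATA match 204 bases and a CACCC match 155 bases before it. CACCC is common, being present in 52% of all 32851 windows of this length. The RefSeq table matched 7 of the 10 genes, all but Xpo7, Ube2o and Alox15. These 7 genes have 10 windows in the table. GATA letters were found in 2 of the 10 (16.6% of all windows), CACCC in 3 (52%), and the interferon core in 1, a window of Ncoa4 (2.98%).

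In the lists of partners of these enzymes (CTLH ligase, proteasome, and interferon and ISG15), edgeR called 0 genes in TAF10KO against WT and 0 against TAF10HET, while DESeq2 called 1 proteasome gene in each and 1 CTLH gene against TAF10HET. Against TAF10HET, 2 CTLH, 7 proteasome and 3 interferon list genes had an unadjusted p under 0.05. All 11 genes of the CTLH ligase list were tested, and 0 passed in TAF10KO against WT with edgeR (1 had an unadjusted p under 0.05, and DESeq2 called 0). The most abundant, Wdr26, differed from WT by -0.24 (adjusted p = 0.295). In the proteasome list all 20 genes were below WT, with a median of -0.20, 0 called by edgeR, 9 with an unadjusted p under 0.05 and 1 called by DESeq2. Psmc3, a subunit of the regulatory particle and the most abundant of the list, stood at 209.4 and 235.5 CPM in TAF10KO and at 246.1 and 286.7 CPM in WT (-0.26, adjusted p = 0.176). On factors taken from the red cell reference genes the proteasome median was 0.000775, that scaling having moved the median of all genes by 0.188, and those of the other E2 and CTLH lists were 0.138 and 0.145. In the interferon and ISG15 list, 0 of 12 genes were called by edgeR, 3 had an unadjusted p under 0.05, and DESeq2 called 0. Its most abundant gene is Uba7, which encodes the E1 enzyme that charges Ube2l6 with ISG15. Uba7 stood at 151.8 and 166.5 CPM in TAF10KO and at 111.6 and 131.4 CPM in WT (0.40, adjusted p = 0.322), so its difference had the opposite sign to that of Ube2l6.

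The enucleation and chromatin condensation list held 14 other genes. None was called in TAF10KO against WT by edgeR, 6 had an unadjusted p under 0.05, DESeq2 called 1, and 10 of 14 were above 0. The most abundant, E2f2, a cell-cycle transcription factor, differed by -0.36 (adjusted p = 0.273).

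Hemgn (ENSMUSG00000028332, chromosome 4, 46393989 to 46413506) encodes hemogen, a nuclear protein of blood cell precursors and a target of GATA1. It stood at 695.1 and 673.7 CPM in TAF10KO, at 857.3 and 1189 CPM in WT and at 705.7, 1233 and 1141 CPM in TAF10HET. The TAF10KO values were the 2 lowest, but TAF10HET replicate 1 lay close above them. Its log2 difference was -0.54 from WT (SE 0.182, adjusted p = 0.198) and -0.46 from TAF10HET (SE 0.173, adjusted p = 0.235). Within the first date code the differences were -0.30 and -0.02, and within the second -0.82 and -0.82. Leaving out 1 library gave -0.895 to -0.26 from WT and -0.773 to -0.136 from TAF10HET. The ends of both ranges came without TAF10KO replicate 1 and without TAF10KO replicate 2, fits with 1 TAF10KO library, for which only sizes are given. Both differences were called without TAF10HET replicate 1 (adjusted p = 0.0339 and 0.0333). The 30 bases before a RefSeq start of Hemgn, at chr4:46404184-46404213 on the minus strand (GRCm38.p6), are shown because a GATA match lies in them, in capitals 13 bases before the start.
Hemgn: ctcacacctgtgcagtgTGATAAagaaagt

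Tspan33 and Fam210b followed the date code more than the genotype. Tspan33 (ENSMUSG00000001763, chromosome 6, 29694222 to 29718559), a tetraspanin of the erythroblast membrane, stood at 226.7, 212.2 and 233.9 CPM in TAF10KO, TAF10HET and WT on the first date code. On the second it stood at 292.6 CPM in TAF10KO, 450.6 and 394.2 in TAF10HET and 385.0 in WT. The genotypes were thus close together on the first date code, and TAF10KO was the lowest on the second. The fitted difference from WT was -0.21 (SE 0.153, adjusted p = 0.506), or -0.05 on the first code and -0.40 on the second. Fam210b (ENSMUSG00000027495, chromosome 2, 172345565 to 172355749), a mitochondrial membrane protein involved in haem synthesis, stood at 232.4, 238.9 and 240.4 CPM on the first date code. On the second it stood at 306.1 CPM in TAF10KO, 444.5 and 388.1 in TAF10HET and 383.5 in WT. Its difference from WT was -0.18 (SE 0.122, adjusted p = 0.469), or -0.05 on the first code and -0.33 on the second. Whether the difference between date codes in these 2 genotype contrasts exceeds the spread was not tested, since each code has 1 TAF10KO and 1 WT library.

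Ncoa4 (ENSMUSG00000056234, chromosome 14, 32159865 to 32179855) encodes the receptor that carries ferritin to autophagosomes and so releases iron. It stood at 187.8 and 264.2 CPM in TAF10KO, at 172.0 and 279.0 CPM in WT and at 182.0, 303.5 and 311.6 CPM in TAF10HET. The genotypes overlapped, and its difference from WT was 0.03 (SE 0.0926, adjusted p = 0.912), the smallest of the 10. In the list of 15 autophagy and ferritin genes, 2 rose in TAF10KO against WT. Of the ferritin genes, the heavy chain Fth1 was not called (0.22, adjusted p = 0.363). The light chain Ftl1 rose by 1.02 on the log2 scale (SE 0.145, adjusted p = 0.041). Ftl1 stood at 2326 and 3489 CPM in TAF10KO against 1222 and 1616 CPM in WT. TAF10HET replicates 2 and 3, at 2078 and 2454 CPM, overlapped with TAF10KO. Reads of Ftl1 can be shared with near-identical copies in the genome, and reads with several alignments were not counted, so its level is uncertain. The autophagy receptor Sqstm1 rose by 0.53 (SE 0.0778, adjusted p = 0.0438), and its TAF10KO values of 153.6 and 180.6 CPM lay above all 5 others, which ran from 110.4 to 137.9 CPM. Both calls were lost with no replicate block (adjusted p = 1.0 and 0.988) and with non-robust dispersions (0.055 and 0.0502). Leaving out TAF10HET replicate 2 or 3 also ended them (0.0796 and 0.103 for Ftl1, 0.0994 and 0.151 for Sqstm1). On factors taken from the red cell reference genes that of Sqstm1 was lost (0.72, adjusted p = 0.0655). Neither call held without WT replicate 1 or 2, where Ftl1 was at 1.17 and 0.85 and Sqstm1 at 0.57 and 0.48.

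Alox15 (ENSMUSG00000018924, chromosome 11, 70344152 to 70352031) encodes a lipoxygenase that opens mitochondrial membranes in reticulocytes, and it is also made by eosinophils and some macrophages. It had the highest difference of the 10 from both WT and TAF10HET in TAF10KO, and neither passed the test. On the first date code it stood at 7.25 CPM in TAF10KO, 2.17 in TAF10HET and 2.66 in WT, and on the second at 12.8 in TAF10KO, 10.2 and 7.39 in TAF10HET and 6.59 in WT. TAF10KO was the highest on each date code, and the groups overlapped across date codes. The difference from WT was 1.21 (SE 0.298, adjusted p = 0.117), and was 1.42 on the first code and 0.94 on the second. The difference from TAF10HET was 0.96 (SE 0.273, adjusted p = 0.14), with 1.71 and 0.55. The difference from WT was called without TAF10HET replicate 1 (1.17, adjusted p = 0.0165). Without TAF10KO replicate 2 the differences from WT and TAF10HET were 1.62 and 1.43, and without TAF10KO replicate 1 they were 0.80 and 0.595. Each of these fits has 1 TAF10KO library, so only sizes are given. On factors taken from the red cell reference genes, both passed the threshold (1.39, adjusted p = 0.0427, and 1.20, adjusted p = 0.0289), a scaling that moved the median of all genes by 0.188 and 0.197, in the order given. Of the other lipoxygenase genes, 4 of 7 were abundant enough to test and 0 were called by edgeR in TAF10KO against WT, while 2 had an unadjusted p under 0.05 and DESeq2 called 1. The most abundant, Alox12, differed by 0.28 (adjusted p = 0.322).

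Genes with a profile like that of Alox15 were sought among 9240 genes by the mean absolute difference of centred log2 CPM over the 7 libraries. The nearest was Prg2, the major basic protein of eosinophil granules, at 0.218, where the mean absolute deviation of Alox15 itself was 0.736. Prg2 stood at 108.9, 30.2 and 58.3 CPM in TAF10KO, TAF10HET and WT on the first date code, and at 186.3, 145.8, 119.4 and 139.3 CPM in TAF10KO, both TAF10HET and WT on the second. Its difference from WT was 0.69 (adjusted p = 0.344), from 0.18 without TAF10KO replicate 1 to 1.09 without TAF10KO replicate 2, and 3 of 17 alternatives called it. Since Prg2 was picked for its likeness to Alox15 in these libraries, its order of libraries is no separate observation. Epx, the eosinophil peroxidase gene, stood at 16.8 and 26.1 CPM in TAF10KO, at 4.66 and 28.8 CPM in WT and at 2.64, 19.4 and 15.9 CPM in TAF10HET, and it was chosen after its values were seen. The summed level of the 8 eosinophil and mast cell markers was 136.1 and 227.9 CPM in TAF10KO, 71.9 and 180.2 CPM in WT and 42.6 to 176.4 CPM in TAF10HET, with no marker at 0 in every library. Of the 6 tested, 4 were above 0 and 2 below in TAF10KO against WT, and likewise against TAF10HET. Against WT 0 were called by edgeR, 1 had an unadjusted p under 0.05 and DESeq2 called 0. Against TAF10HET 0 were called by edgeR, 3 had an unadjusted p under 0.05 and DESeq2 called 1. The part of these cells in the level of Alox15 was not tested.

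**Figure D4:**
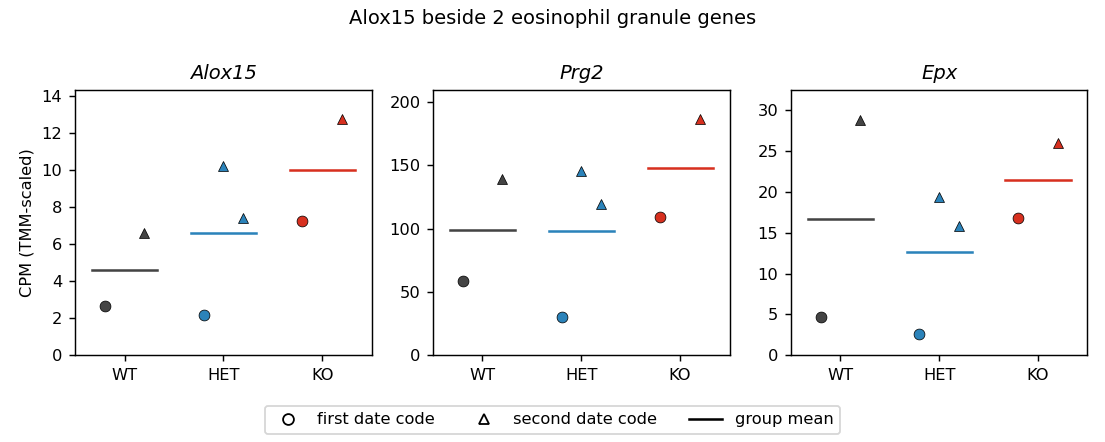
CPM of Alox15, Prg2 and Epx (vertical axis, TMM-scaled, starting at 0) in the 7 libraries by genotype; circles are the first date code, triangles the second, and lines are group means. The first-date TAF10KO library is above the first-date TAF10HET and WT libraries for all 3 genes, and WT on the second date code is the highest library for Epx at 28.8 CPM.

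Some endothelial, neutrophil and macrophage markers also differed with genotype. In TAF10KO against WT, where 0.608% of all genes were called, 2 of 9 endothelial markers rose (DESeq2 called 3), their summed level being 245.4 and 514.2 CPM in TAF10KO and 189.5 and 385.3 CPM in WT. All 10 neutrophil markers were above 0 against WT, with 0 called by edgeR, 6 at an unadjusted p under 0.05 and 3 called by DESeq2 (491.0 and 798.3 CPM summed in TAF10KO, 385.7 and 480.7 CPM in WT). Of the 10 macrophage markers tested, 9 were below 0 against WT, with 0 called by edgeR, 7 at an unadjusted p under 0.05 and 2 called by DESeq2 (158.8 and 284.7 CPM summed in TAF10KO, 218.4 and 367.6 CPM in WT). Against TAF10HET, where 1.61% of all genes were called, 3 of 10 neutrophil markers rose (DESeq2 called 5), with a summed level of 316.4 to 534.4 CPM in TAF10HET. There 3 of 9 endothelial markers rose (DESeq2 called 4), and all 10 macrophage markers were below 0, 1 of them called by edgeR and 5 by DESeq2 (236.0 to 348.6 CPM summed in TAF10HET). In the hepatocyte, mesenchymal, megakaryocyte and early progenitor lists edgeR called 0 markers in either comparison. Against WT, 9 of 11 hepatocyte markers were below 0, and 8 of 8 mesenchymal, 8 of 9 megakaryocyte and 8 of 9 early progenitor markers were above 0. Of these lists, in that order, 5, 0, 3 and 2 markers had an unadjusted p under 0.05 against WT, and DESeq2 called 2, 0, 2 and 0. No marker of these lists was at 0 in every library, and their part in the differences of Xpo7 and Ube2l6 was not tested.

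TAF10HET against WT shows what EpoCre with 1 altered Taf10 allele, as given in the titles, goes with. Taf10 RNA itself was above WT on the first date code (0.12) and below it on the second (-0.61). None of the 10 genes was called by edgeR, where the background was 0.00633% of all genes. Only Ube2o had an unadjusted p under 0.05, as had 530 of the 15800 genes tested. DESeq2 called 0 of the 10 genes and 14 of all genes. The differences ran from -0.08 (Hemgn) to 0.33 (Ube2o), with 9 of 10 above 0, where 52.7% of all genes were. Ube2h differed by 0.25 (SE 0.12), Alox15 by 0.25 (SE 0.288), Xpo7 by 0.21 (SE 0.147) and Ube2l6 by 0.16 (SE 0.112). Trim58 was below WT on the first date code (-0.46) and above it on the second (0.52).

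The date code went with the clearest differences in these genes. On the second date code 7 of the 10 rose relative to the first with TMM factors (relative to the red cell reference genes 1 rose and 1 fell, as given below), against 18.7% of all genes called higher and 41.4% called in either direction. Ncoa4 ran from 172.0 to 187.8 CPM on the first code and from 264.2 to 311.6 CPM on the second, a rise of 0.66 (SE 0.0731, adjusted p = 0.00067). Fam210b rose by 0.64 (SE 0.0966, adjusted p = 0.00232), from 232.4 to 240.4 CPM to 306.1 to 444.5 CPM. Ube2o, from 153.1 to 178.3 CPM on the first code and 203.4 to 303.8 CPM on the second, rose by 0.58 (SE 0.0916, adjusted p = 0.00268). The rise of Tspan33, from 212.2 to 233.9 CPM to 292.6 to 450.6 CPM, was 0.72 (SE 0.122, adjusted p = 0.00373). For these 4 genes all 4 libraries of the second code lay above all 3 of the first, as for 18.8% of all genes. Alox15 rose by 1.36 (SE 0.244, adjusted p = 0.00475), from 2.17 to 7.25 CPM on the first code to 6.59 to 12.8 CPM on the second. Xpo7 rose by 0.52 (SE 0.123, adjusted p = 0.0138) and Hemgn by 0.42 (SE 0.144, adjusted p = 0.0496), although Hemgn in TAF10KO moved by only -0.04 between the codes. The call of Hemgn was lost with upper-quartile factors (adjusted p = 0.0827), a filter of 5 CPM in 2 libraries (0.0786) and non-robust dispersions (0.0567). Leaving out any 1 TAF10HET library also ended it (adjusted p of 0.0935 to 0.205). It was also lost without WT replicate 1 or 2, where its log2 difference was 0.38 and 0.41. With the date code alone in the model the calls of Hemgn (adjusted p = 0.0818), Xpo7 (0.162) and Alox15 (0.0719) were lost. That of Xpo7 was also lost without WT replicate 1, where its difference was 0.58. Trim58 (0.45, adjusted p = 0.0925), Ube2l6 (0.24, adjusted p = 0.0759) and Ube2h (0.22, adjusted p = 0.12) did not pass in edgeR. DESeq2 called 9 of the 10, with Trim58 (0.47, adjusted p = 0.0422) and Ube2l6 (0.25, adjusted p = 0.0444) among them, and edgeR with no filter on low counts called all 10.

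Red cell genes as a whole rose with the second date code, and hepatocyte, macrophage, endothelial and mesenchymal markers fell, while lists of other blood cells did not fall. All 23 red cell reference genes rose, with a median of 0.57, close to the median of 0.55 for the 10 genes, where the median of all genes was 0.02. The summed level of the red cell list was 15020 to 16710 CPM on the first code and 19570 to 27710 CPM on the second. Hepatocyte markers fell in 9 of 11 (18550 to 21110 CPM summed, then 13090 to 17260), and macrophage markers in 7 of 10 (284.7 to 367.6 CPM, then 158.8 to 255.9). Endothelial markers fell in 9 of 9 (358.7 to 514.2 CPM, then 189.5 to 245.4) and mesenchymal markers in 8 of 8 (1400 to 2545 CPM, then 191.7 to 344.9). In contrast, 4 of 10 neutrophil, 3 of 6 eosinophil and mast cell, and 2 of 9 megakaryocyte markers rose, and 0 fell. Their medians were 0.37, 0.88 and 0.25. Of 9 early progenitor markers, 5 rose and 2 fell. No marker of these lists was at 0 in every library. The part of cell makeup in the date code differences of the 10 genes was not tested.

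Scaling by the red cell genes gives the difference of the 10 genes relative to them. On factors taken from the 23 reference genes, which moved the median of all genes by -0.55, 5 of the 10 genes were above 0 and 5 below, with a median of -0.00447. Alox15 was called higher on the second date code (0.85, adjusted p = 0.00535) and Ube2l6 was lower (-0.32, adjusted p = 0.0394), and the other 8 were not called on this scale. The medians of the 7 related lists were all below 0 on it, from -0.11 (enucleation) to -0.83 (interferon and ISG15). Of all genes called between date codes, 45.2% were higher with TMM factors, 31.1% with upper-quartile factors and 0.779% with the red cell factors.

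**Figure D5:**
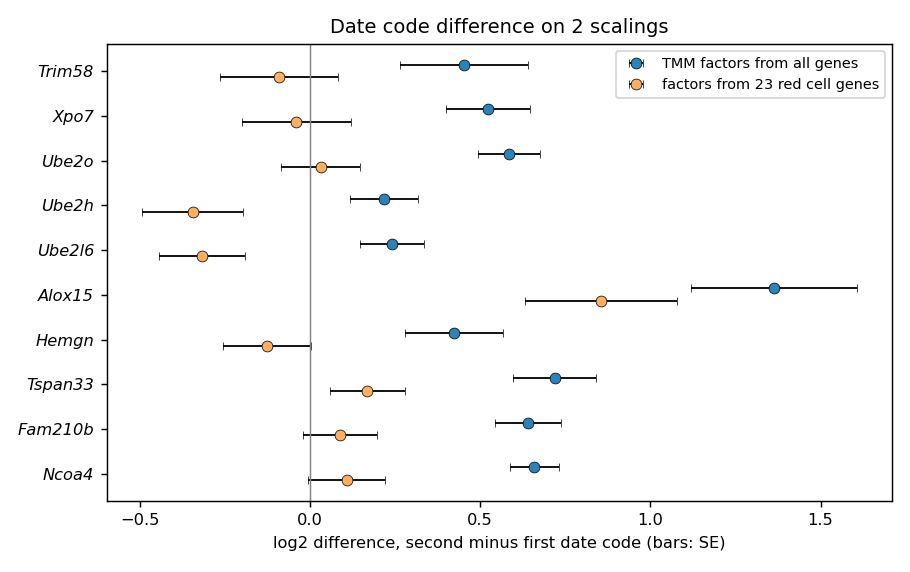
Log2 difference of the second from the first date code (horizontal axis, bars are SE) for the 10 genes on 2 scalings, TMM factors from all genes and factors from the 23 red cell reference genes. With TMM factors all 10 are above 0 (51.8% of all genes), and relative to the red cell genes 5 are above 0 and 5 below, Alox15 being the highest at 0.85.

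The related lists divided on the date code, and their counts stand beside the 18.7% of all genes called higher and 41.4% called in either direction. In the E2 family, Ube2o had the highest difference of all 33 genes. Of the 30 other E2 genes, 15 rose and 2 fell, among them Ube2m, the E2 of the modifier NEDD8 (0.47, adjusted p = 0.0011), and Ube2e2 (-1.72, adjusted p = 0.000662). In the CTLH ligase list 8 of 11 rose, with the smallest adjusted p for the substrate receptor Gid4 (0.46, adjusted p = 0.00304) and for Ranbp10 (0.59, adjusted p = 0.00607). In the proteasome list 7 of 20 genes rose and 0 fell, with the smallest adjusted p for the core subunit genes Psmb5 (0.29, adjusted p = 0.00609) and Psma7 (0.36, adjusted p = 0.00759). The enucleation list had 9 of 14 higher and 2 lower. Rb1, the retinoblastoma protein gene, rose by 0.81 (adjusted p = 0.000571), and the intermediate filament gene Vim fell by 0.97 (adjusted p = 0.000665). Of the autophagy and ferritin genes, 11 of 15 rose and 1 fell, including Gabarapl1 (0.44, adjusted p = 0.0017) and the ferritin heavy chain Fth1 (0.63, adjusted p = 0.00199). Among other lipoxygenase genes, Alox5 (0.45, adjusted p = 0.0373) and its activating protein gene Alox5ap (0.35, adjusted p = 0.0364) rose. The interferon and ISG15 list had 4 of 12 lower and 0 higher, with the ISG15 protease gene Usp18 at -0.69 (adjusted p = 0.0146) and Bst2 at -0.56 (adjusted p = 0.0312). Leaving out either WT library ended the calls of Psmb5, Psma7, Usp18 and Bst2 (adjusted p of 0.0564 to 0.171), and leaving out any TAF10KO or TAF10HET library those of Alox5 and Alox5ap (0.0706 to 0.131). The call of Alox5ap was also lost without WT replicate 1 (0.0526) and that of Bst2 without TAF10HET replicate 3 (0.0702).

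The genes whose profiles over the 7 libraries lay nearest to the other members were found by the same measure. Xpo7 was nearest to Bpgm, the red cell enzyme of bisphosphoglycerate synthesis (0.0523), and then to Tcp11l2 (0.0889). Trim58 was nearest to Slc4a1, the anion exchanger of the red cell membrane (0.114), and then to Ces2g (0.115). Ube2l6 was nearest to Cdkn2d, a cell-cycle inhibitor (0.0707), and to Rnf11 (0.0834), and Ube2h to Psenen (0.056) and Zfp771 (0.0674). Fam210b and Tspan33 shared Dhrs11 among their 2 nearest genes, at 0.0262 and 0.0451, with Gadd45gip1 (0.0309) and Trmo (0.0337) as the others. Ncoa4 and Ube2o likewise shared Chchd10, a mitochondrial protein gene, at 0.045 and 0.0918, with Mrpl57 (0.0499) and the ubiquitin ligase gene Mkrn1 (0.0732) as the others. Hemgn was nearest to Natd1 (0.0326) and Eef2k (0.0527). For Alox15 the second nearest gene was Ampd2 (0.254). With 7 libraries that separate by date code, these are descriptions of the profiles and carry no test.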

How the data were processed

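RNA from 7 whole fetal livers was sequenced after TruSeq version 2 library preparation from 500 ng of total RNA, per the labels' protocols. The deposited files hold raw read counts per Ensembl gene, made by the authors with TopHat2 2.0.8 on mm10, per the submitters' processing notes, which also name DESeq2. For the counting program, annotation and strand setting, the sources used here give nothing. Reads in no gene (6.81% to 10.1%), ambiguous reads (3.98% to 5.94%) and reads with several alignments (14.1% to 22.2%) stand in lines of their own and were left out, so genes with near-identical copies are counted incompletely. Symbols and positions came from a GENCODE annotation of mm10, which matched 37693 of 39017 identifiers; the other 1324 held 0.198% of the counts.

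Testing used edgeR 4.0.16 in R 4.3.3 (filterByExpr by group with a minimum count of 10, TMM factors, robust dispersions, quasi-likelihood F test, two-sided, Benjamini-Hochberg over 15800 genes, threshold 0.05), on all 7 libraries with genotype and date code as terms and 3 residual degrees of freedom. The script was tested on simulated data. The date code served as the replicate block because the titles give it. Deviations from the group mean correlated at 0.40 to 0.74 across genes in 8 pairs of libraries of different genotype that share a code. In groups of 2 libraries deviations mirror each other by construction, so pairs with different codes add nothing. Replicate numbers within a group are names and pair nothing. No library duplicated another of its group (chi-square per gene 16.28 to 189.6). The SE of a log2 difference is its size divided by the square root of F, log2 CPM used a prior count of 2, and levels per kilobase use the longest principal transcript. Red cell reference factors median-of-ratios factors computed from 23 red cell genes alone.

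The 10 genes and all gene lists were chosen with earlier results of these data known. Named beside the 10 genes were, per pathway list and for TAF10KO against WT and the date codes, up to 2 called genes with the smallest adjusted p or else the most abundant gene, and the 2 genes nearest in profile whose mean log2 CPM reached 3. Alternatives were median-of-ratios, upper-quartile and red cell reference factors, globin genes left out of library totals, no filter, a filter of 5 CPM in 2 libraries, non-robust dispersions, no replicate block, DESeq2 1.42.0, only the groups compared, and each library left out in turn.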

Additional observations from a re-analysis of the deposited data

Results flagged for a closer look

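Hemgn had 1 library that stood apart. Among the 4 libraries of the second date code, TAF10KO replicate 2 (673.7 CPM) lay below the others (1141 to 1233 CPM) by a gap of 0.835 of the whole range, above Dixon's critical value for 4 values. One such set was examined for each of the 10 genes. Chance marks about 1 in 20 sets where all values come from a single group. These 4 libraries mix the genotypes, and TAF10KO replicate 2 is the only TAF10KO library among them. An outlying library and a genotype difference cannot be told apart there.

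Several genotype differences changed sign between the date codes. The share of all genes that changed sign is not given here, so the number of such changes is not read as a trait of these genes. These changes of sign were not tested, since a code holds 1 library of a genotype, or 2 of TAF10HET. For TAF10KO against WT, Ube2h was at -0.09 on the first code and 0.214 on the second, and Ncoa4 at 0.127 and -0.0787. For TAF10HET against WT, the values on the first and second codes were -0.46 and 0.52 for Trim58, -0.283 and 0.398 for Alox15, -0.14 and 0.13 for Tspan33, and -0.00866 and 0.115 for Fam210b. TAF10HET was lox/wt on the first code and wt/ko on the second, so that date code and allele cannot be told apart there. For TAF10KO against TAF10HET they were 0.0887 and -0.127 for Ube2o, 0.0951 and -0.526 for Tspan33, and 0.0453 and -0.219 for Ncoa4.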

How the results depend on the processing

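The counts of called genes depended on the model. TAF10KO against WT called 96 genes, and 1399 with no filter on low counts, 53 with non-robust dispersions, 0 with no replicate block, 566 with DESeq2, 553 with only the groups compared, and 0 to 1282 with 1 library left out. The 10 genes had 0 calls there, 1 with red cell factors, 5 with no filter, 4 with DESeq2, 4 with only the groups compared and 0 to 3 with 1 library left out (3 without TAF10KO replicate 1, TAF10KO replicate 2 or TAF10HET replicate 1). TAF10HET against WT called 1 gene, and 3 with red cell factors, 0 without globin genes, 289 with no filter, 0 with non-robust dispersions, 0 with no replicate block, 14 with DESeq2, 7 with only the groups compared and 0 to 13 with 1 library left out. TAF10KO against TAF10HET called 254, and 1498 with no filter, 0 with no replicate block, 665 with DESeq2, 26 with only the groups compared and 16 to 1203 with 1 library left out. Its 2 calls among the 10 genes, Xpo7 and Ube2l6, were both lost with red cell factors. The 1 call there was Alox15, higher in TAF10KO (1.20, adjusted p = 0.0289). Of the 10 genes, 5 were called with no filter, 1 with non-robust dispersions, 0 with no replicate block and 0 with only the groups compared. Without TAF10HET replicate 2 or 3, 0 were called. The date codes called 6536, 9880 with red cell factors and 3206 to 7303 with 1 library left out, and 7 of the 10 genes, 2 with red cell factors and 4 with no replicate block. The sign of these differences turned, called ones between date codes included. In TAF10KO against WT, leaving out 1 library gave -0.0909 (without TAF10KO replicate 1) to 0.11 for Ncoa4, with -0.0169 without WT replicate 1, -0.145 (without TAF10KO replicate 2) to 0.239 for Ube2h and -0.162 (without TAF10KO replicate 1) to 1.85 for Epx, and red cell factors gave 0.0554 for Ube2d3. In TAF10HET against WT, Hemgn was 0.00487 with no replicate block. Leaving out 1 library gave -0.162 to 0.121 (without TAF10HET replicate 1) for Hemgn, -0.255 (without WT replicate 2) to 0.449 for Trim58, with -0.0368 without TAF10HET replicate 2, and, both lowest without TAF10HET replicate 2, -0.0145 to 0.56 for Alox15 and -0.0484 to 0.219 for Tspan33. In TAF10KO against TAF10HET, red cell factors gave 0.15 for Ube2o, 0.0245 for Ube2h and 0.0875 for Ncoa4, and leaving out 1 library gave -0.162 to 0.0324 (without TAF10HET replicate 2) for Ube2o. Between date codes, red cell factors gave -0.0914 for Trim58, -0.0403 for Xpo7, -0.345 for Ube2h, -0.318 for Ube2l6, -0.127 for Hemgn, -0.0861 for Gid4, -0.0797 for Ube2m, -0.264 for Psmb5, -0.197 for Psma7, -0.116 for Gabarapl1, -0.195 for Alox5ap and -0.0914 for Alox5. Scaling to red cell genes turns signs by its construction, and the cause of the other changes was not tested. Where 1 library of TAF10KO or WT was left out, the remaining one was taken to vary like the other groups. With 2 or 3 livers per genotype and 3 residual degrees of freedom, a difference that missed the threshold is not shown to be absent, and Alox15, with as few as 42 reads, had the largest SE of the 10 genes.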
